A study of Mus musculus with 8 samples.

Results

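The genes described here are 10 transcripts of the p53 and growth arrest response, Phlda3, Mdm2, Ccng1, Sesn1, Sesn2, Trp53inp1, Bbc3, Gadd45a, Gadd45b and Gadd45g, out of 19938 genes tested. They were taken by name, with earlier results of these data known, so counts set beside all genes are description only. Each had exactly 1 probe set with that single symbol in the array platform's annotation, so all 10 were measured. Expression was read on biotin-labelled single-colour microarrays in Epcam-positive epithelial cells of mouse lungs at E18.5, shortly before birth. There were 4 knockout arrays (labelled Mst1/2 CKO), whose lung epithelial progenitors had lost the Hippo kinases Mst1 and Mst2 through ShhCre, and 4 control arrays. Every array came from dissociated lungs whose Epcam-positive cells were picked out with magnetic beads. The labels call the arrays biological replicates and do not say which alleles the controls carried, whether they carried Cre, or how many embryos stand behind an array, so p-values measure the spread between these arrays.

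The transcription factor p53 is held at a low level by the ubiquitin ligase Mdm2, which is itself a p53 target, and it accumulates when DNA is damaged or growth signals are unbalanced. Its target genes stop the cell cycle, repair DNA, restrain growth signalling and, when stress persists, start cell death. Many of these genes have further inputs: Gadd45 genes respond to stress kinases, NF-kappaB, Foxo factors and growth arrest, and Sesn2 is also a target of Atf4, the transcription factor of the integrated stress response. Hippo signalling holds back the coactivators Yap and Taz, and the comparison asked which of these arrest and death genes differed in fetal lung epithelium that lacked the upstream kinases.

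Values are deposited log2 expression and differences are knockout minus control on that scale, with the standard error (SE) of limma's fit across all genes. A gene was called where its Benjamini-Hochberg adjusted p over all 19938 genes was under 0.05. Of the 10 genes, 2 rose (Phlda3 and Gadd45b), 4 fell (Gadd45a, Gadd45g, Sesn2 and Trp53inp1) and 4 did not pass (Mdm2, Ccng1, Bbc3 and Sesn1). Among all genes 18.8% were called, 8.6% as higher and 10.2% as lower in the knockout. These shares were not matched for expression level, and all 10 genes lie above the median level of all genes. The median difference of the 10 genes was 0.06 and the median size of their differences 0.37, beside -0.02 and 0.09 over all genes. In 6 of the 10 genes, the same 6 that were called, the 4 knockout values did not overlap the 4 control values, which was so for 22.1% of all genes. The genes did not move as a block: the differences ran from -0.72 for Gadd45a to 0.68 for Phlda3.

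**Figure D1:**
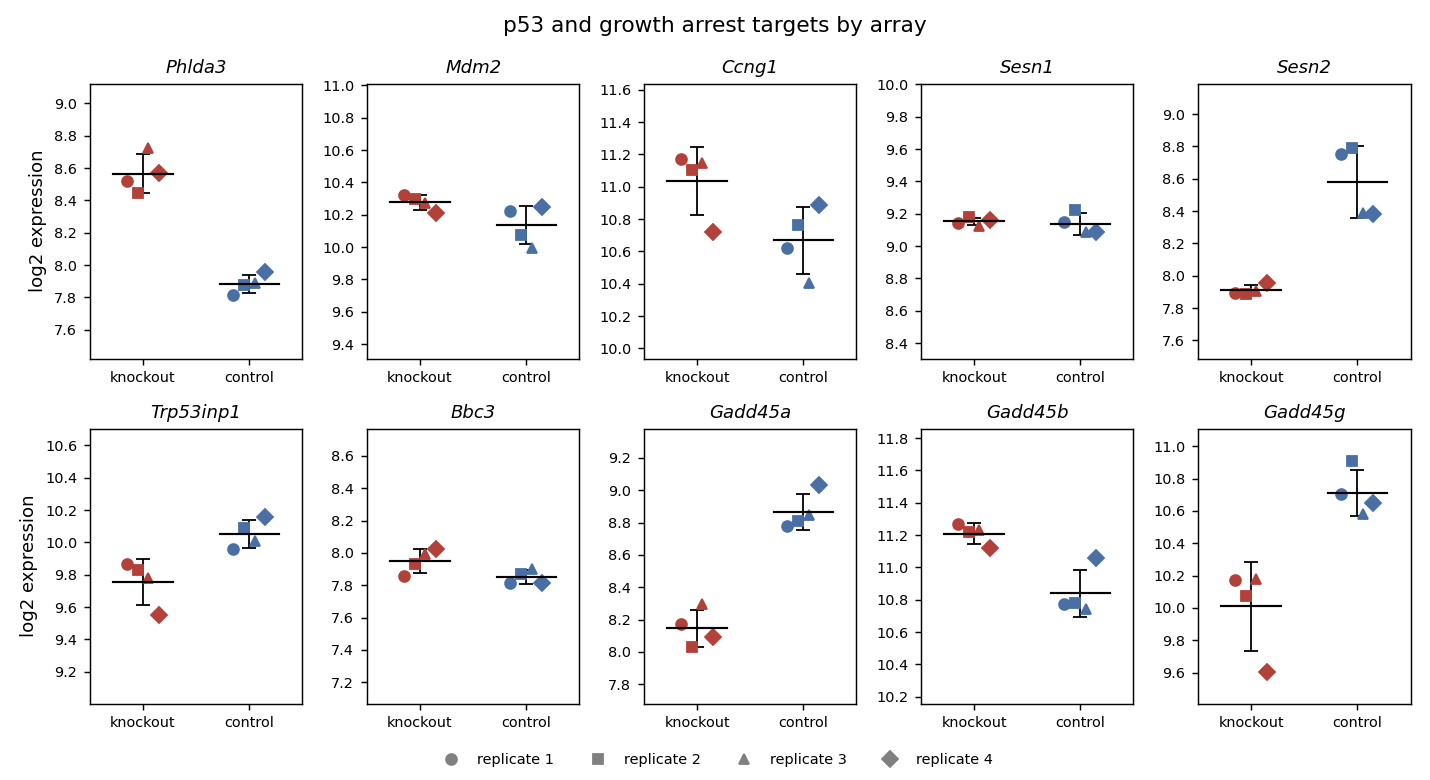
Log2 expression of the 10 genes in each array (y axis, the same span of log2 units in every panel), knockout in red at left and control in blue at right, with the group mean as a bar and its SD as whiskers (n = 4); marker shapes give the replicate number. Phlda3 and Gadd45b lie above the control arrays in every knockout array, Gadd45a, Gadd45g, Sesn2 and Trp53inp1 lie below, and Mdm2, Ccng1, Sesn1 and Bbc3 overlap.

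The arrays were checked first. Stk4, which encodes Mst1, read 9.45, 9.44, 9.31 and 9.24 in knockout replicates 1 to 4 and 9.59, 9.84, 9.59 and 9.62 in control replicates 1 to 4 (difference -0.30, SE 0.076, limma adjusted p = 0.0188; exact permutation p = 0.0286, the smallest that 4 against 4 arrays can give). Where this probe set sits relative to the deleted exons is not known here, so it does not check the deletion, and the call ended without knockout replicate 3 (adjusted p = 0.0592). Stk3, which encodes Mst2, and Trp53 itself were not analysed here. The epithelial adhesion genes Epcam (10.07 ± 0.17 in knockout and 10.06 ± 0.15 in control arrays, SD, n = 4 each) and Cdh1 (12.10 ± 0.04 and 12.10 ± 0.04) and the lung transcription factor gene Nkx2-1 (11.11 ± 0.06 and 11.16 ± 0.17) were read in both groups. The keratin gene Krt8 read 12.55 ± 0.07 in knockout and 12.27 ± 0.15 in control arrays, a difference of 0.27 (limma adjusted p = 0.0367, and 0.17 with adjusted p = 0.421 once the mean of mesenchymal markers is a covariate) whose call ended without any 1 of knockout replicates 1 to 3 or control replicates 1 to 3 (adjusted p 0.0570 to 0.110). Epcam, Cdh1, Nkx2-1 and Krt8 were named for this check out of 13 general epithelial markers. In that list 2 rose and 2 fell, with differences from -0.58 to 0.62, so not every epithelial marker was steady. No detection call accompanies the values, so whether a low value lies at background is not known. In whole-population RNA, fewer cells of a type and less RNA per cell cannot be told apart.

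Phlda3 encodes a small pleckstrin homology protein that competes with the kinase Akt for membrane lipid and so restrains survival signalling. It had the smallest p of the 10 genes, at rank 326 of 19938. It read 8.52, 8.44, 8.73 and 8.57 in knockout replicates 1 to 4, against 7.82, 7.88, 7.89 and 7.95 in control replicates 1 to 4. The lowest knockout value lay clear of the highest control value, and the difference of 0.68 (SE 0.069, 1.60-fold higher, limma adjusted p = 7.75e-05) is several times the spread within either group. The call held under all 19 alternative settings, with differences between 0.56 and 0.77. The genes whose 8 values lay closest to those of Phlda3, each gene centred on its own mean, were Lmnb1, a nuclear lamin (root mean square difference 0.058 log2 units over 8 arrays), Slc12a4, a potassium chloride cotransporter (0.063), and Actn1, an actin crosslinker (0.064). These 3 rose by 0.61 (SE 0.073), 0.58 (SE 0.057) and 0.67 (SE 0.064) in the knockout. Closeness was measured across both groups, so genes picked this way had to rise by a like amount, and their rise adds no support.

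Mdm2 and Ccng1, which both feed back on p53, were higher on average in the knockout but did not pass. Mdm2 read 10.32, 10.30, 10.27 and 10.21 in knockout arrays and 10.22, 10.08, 9.9965 and 10.25 in control arrays. Knockout replicate 4 lay below control replicates 1 and 4, and the difference of 0.14 (SE 0.069, limma adjusted p = 0.211) had a 95% interval from -0.01 to 0.29. Ccng1, cyclin G1, which brings a phosphatase to Mdm2, read 11.17, 11.10, 11.14 and 10.72 in knockout arrays and 10.62, 10.77, 10.40 and 10.88 in control arrays. Here 3 knockout arrays lay above every control array, while knockout replicate 4 lay below control replicates 2 and 4. The difference was 0.37 (SE 0.12, limma adjusted p = 0.0607, 95% interval 0.10 to 0.64). Single arrays decided whether Ccng1 passed: the difference was 0.47 without knockout replicate 4 (adjusted p = 0.00871) and 0.44 without control replicate 4 (adjusted p = 0.0374). It also passed with quantile normalization (0.39, adjusted p = 0.0288).

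The start regions of Phlda3, which rose, and of the p53 feedback genes Mdm2 and Ccng1, which did not pass, are shown for comparison. Whether their letters bear on the differences was not tested. RefSeq windows of 300 bases (250 before and 50 after the start, GRCm38.p6) were at hand for 9 of the 10 genes, in 12 windows. They were searched on both strands for the p53 half-site and for a full site of 2 half-sites at most 13 bases apart, and for the motifs of TEAD (GGAATG), the DNA-binding partners of Yap, of AP-1 (TGANTCA) and of Atf4 (TGATGNAA). A half-site was found near the starts of 4 of the 9 genes (Mdm2, Ccng1, Sesn1 and Gadd45a), beside 8.36% of all 32851 windows and 9.55% of all 27025 genes with a window. A full site was found in 0 of the 12 windows and in 0.0731% of all windows, and AP-1 in 0 of the 12 and 7.81% of all. TEAD matched in 1 window (14.7% of all) and Atf4 in 1 (3.97% of all). No motif overlaps another in these windows, and a match is only a run of letters. Sites outside the windows, further upstream or deeper in the genes, were not searched, so a window without a match does not show that a site is lacking. Sequences are printed 5′ to 3′ along the strand of the gene. Capitals mark the p53 half-site in Mdm2 (chr10:117710910-117710969, minus strand, bases -211 to -152 from the start) and Ccng1 (chr11:40755437-40755496, minus strand, -210 to -151), and the TEAD letters at bases 7 to 12 after the start of Phlda3 (chr1:135766055-135766104, plus strand, -30 to 20):
Phlda3: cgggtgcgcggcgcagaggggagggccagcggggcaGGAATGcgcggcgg
Mdm2: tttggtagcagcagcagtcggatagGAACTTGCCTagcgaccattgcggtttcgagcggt
Ccng1: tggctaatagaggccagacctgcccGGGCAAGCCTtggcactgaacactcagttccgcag

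Sestrins are stress proteins that lower mTORC1 activity by binding the GATOR2 complex, and here Sesn2 fell while Sesn1 did not pass. Sesn2, which senses leucine, read 7.89, 7.88, 7.91 and 7.96 in knockout arrays, against 8.75, 8.79, 8.39 and 8.38 in control arrays. The knockout arrays lay within 0.07 of each other and below every control array, whereas the control arrays spanned 0.41, with replicates 1 and 2 higher than replicates 3 and 4. Sesn2 fell by 0.67 (SE 0.098, 1.59-fold lower, limma adjusted p = 7.53e-04), a call that held under all 19 alternative settings (differences from -0.86 to -0.57). Sesn1, the sestrin most tightly tied to p53, read 9.15, 9.18, 9.12 and 9.16 in knockout arrays and 9.15, 9.23, 9.09 and 9.08 in control arrays. Its groups lay on top of each other (difference 0.02, SE 0.055, limma adjusted p = 0.891, 95% interval -0.11 to 0.14). Sesn3, which is known as a Foxo target, fell by 0.41 (SE 0.11, limma adjusted p = 0.0276), a call that ended without knockout replicate 2 (adjusted p = 0.0504), control replicate 1 (0.0775), control replicate 2 (0.0639) or control replicate 4 (0.05002, just over the threshold). It also ended with all probe sets tested (adjusted p = 0.0565) and with the mean of mesenchymal markers as a covariate, where the difference was -0.21 (adjusted p = 0.438).

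The difference of Sesn1 exceeded that of Sesn2 by 0.68 (SE 0.085) and that of Sesn3 by 0.42 (SE 0.14), each with exact permutation p = 0.0286, adjusted p = 0.0349 over the 11 gene pairs compared in all. Sesn1 lay between 9.08 and 9.23 in all arrays, a narrower span than the gap between the Sesn2 groups (7.96 to 8.38). The exact p of Sesn1 against Sesn2 was thus fixed by the Sesn2 values and adds no support. The Sesn1 and Sesn3 pair no longer passed without any 1 of the control replicates (adjusted p = 0.0698 each time). Sesn2 and Sesn3 did not pass against each other (-0.26, SE 0.16, exact permutation p = 0.171, adjusted p = 0.189), but did without knockout replicate 4 (-0.40, adjusted p = 0.0349). Sesn1 has 2 RefSeq starts. Capitals mark the p53 half-site before the second (chr10:41887241-41887300, plus strand, -198 to -139):
Sesn1: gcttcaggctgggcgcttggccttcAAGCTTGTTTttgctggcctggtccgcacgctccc

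Of the cell death effectors, Trp53inp1 fell and Bbc3 did not pass. Trp53inp1, a p53 cofactor that also takes part in autophagy, read 9.87, 9.83, 9.78 and 9.55 in knockout arrays, against 9.96, 10.09, 10.01 and 10.15 in control arrays. Every knockout array lay below every control array, with only a narrow gap between knockout replicate 1 and control replicate 1. Trp53inp1 fell by 0.30 (SE 0.079, 1.23-fold lower, limma adjusted p = 0.0247), but the call ended without knockout replicate 3 (adjusted p = 0.0552), control replicate 2 (0.0598) or control replicate 4 (0.0671). It also ended with knockout replicates 1 and 4 both left out (adjusted p = 0.0688) and with the replicate number as a block (0.0558). Nor did it hold with the mean of immediate early genes (-0.41, adjusted p = 0.160) or of mesenchymal markers (-0.24, adjusted p = 0.252) as a covariate. Bbc3, the BH3-only death protein Puma, read 7.85, 7.93, 7.99 and 8.02 in knockout arrays and 7.81, 7.87, 7.90 and 7.82 in control arrays. These ranges overlapped, and Bbc3 did not pass (0.10, SE 0.058, limma adjusted p = 0.295, 95% interval -0.03 to 0.23).

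The 3 Gadd45 genes encode small acidic proteins that bind the kinase Map3k4 and activate the p38 and JNK stress kinases, and that bind Pcna and Cdk1 and slow the cell cycle. All 3 were called, in opposite directions. Gadd45a, the classical p53 target of the family, read 8.17, 8.03, 8.30 and 8.09 in knockout arrays, against 8.78, 8.81, 8.85 and 9.03 in control arrays. The groups were separated by more than the span of either, and Gadd45a fell by 0.72 (SE 0.078, 1.65-fold lower, limma adjusted p = 1.06e-04). The call held under all 19 alternative settings, with differences from -0.84 to -0.60.

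Gadd45g, which is best known as an early growth arrest and differentiation gene, read 10.18, 10.08, 10.18 and 9.61 in knockout arrays, against 10.71, 10.91, 10.58 and 10.65 in control arrays. Knockout replicate 4 was well below the other knockout arrays, and all 4 lay below the control arrays. Gadd45g fell by 0.70 (SE 0.13, 1.63-fold lower, limma adjusted p = 0.00265).

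Gadd45b, an NF-kappaB and TGF-beta response gene with a role in cell survival, read 11.27, 11.22, 11.23 and 11.12 in knockout arrays, against 10.77, 10.78, 10.74 and 11.06 in control arrays. Control replicate 4 stood above the other control arrays and just under knockout replicate 4. Gadd45b rose by 0.37 (SE 0.077, 1.29-fold higher, limma adjusted p = 0.00659), and no single array left out ended the call.

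The Gadd45 genes were also compared in pairs. Gadd45b rose, and Gadd45a and Gadd45g fell, each without overlap between the groups. The exact permutation p of Gadd45b against either gene was thus fixed in advance and adds no support to the opposite directions. Gadd45b exceeded Gadd45g by 1.07 (SE 0.15) in its knockout minus control difference, and the difference of Gadd45a lay below that of Gadd45b by 1.09 (Gadd45a minus Gadd45b -1.09, SE 0.060), each with exact permutation p = 0.0286 and adjusted p = 0.0349. Gadd45a and Gadd45g were not distinguished (-0.02, SE 0.16, exact permutation p = 0.943). The 120 bases before each start are shown for comparison. Capitals mark a p53 half-site at bases -40 to -31 of Gadd45a (chr6:67037408-67037527, minus strand) and an Atf4 motif on the opposite strand at -101 to -94 of Gadd45g (chr13:51846555-51846674, plus strand), and Gadd45b (chr10:80929971-80930090, plus strand) held no match:
Gadd45a: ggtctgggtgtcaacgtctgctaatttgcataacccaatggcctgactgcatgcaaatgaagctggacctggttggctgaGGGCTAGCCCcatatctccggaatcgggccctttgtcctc
Gadd45b: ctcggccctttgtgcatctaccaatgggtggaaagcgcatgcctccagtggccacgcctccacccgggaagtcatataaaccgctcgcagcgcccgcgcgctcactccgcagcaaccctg
Gadd45g: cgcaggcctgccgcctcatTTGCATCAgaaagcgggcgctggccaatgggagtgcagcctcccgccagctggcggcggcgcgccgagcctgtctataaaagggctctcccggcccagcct

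Close relatives of the other genes also differed from them, but only Phlda3 and Phlda2 were called in opposite directions. Phlda2, an imprinted placental growth restrainer, fell by 0.63 (SE 0.098, limma adjusted p = 0.00111), and Phlda1 did not pass (0.02, SE 0.076, adjusted p = 0.881). The difference of Phlda3 exceeded that of Phlda2 by 1.31 (SE 0.16) and that of Phlda1 by 0.65 (SE 0.079). Trp53inp2, an autophagy factor, fell by 0.82 (SE 0.11, limma adjusted p = 4.16e-04), and the difference of Trp53inp1 exceeded it by 0.52 (SE 0.15). Mdm4, the partner of Mdm2 in restraining p53, did not pass (-0.17, SE 0.065, limma adjusted p = 0.103), nor did Ccng2, a cyclin G of quiescent cells (-0.19, SE 0.13, adjusted p = 0.377). Even so, the difference of Mdm2 exceeded that of Mdm4 by 0.31 (SE 0.084) and that of Ccng1 exceeded that of Ccng2 by 0.56 (SE 0.096). Each of these 5 pair differences had exact permutation p = 0.0286, the smallest possible, and adjusted p = 0.0349, so 9 of the 11 pairs passed. All 9 share these values, so the p does not grade the pairs. The adjusted p depends on how many pairs reach the smallest p. For Phlda3 and Phlda2, which moved in opposite directions without overlap, the exact p was fixed in advance. For Phlda3 and Phlda1 it was fixed too, because Phlda1 spanned less over all arrays (10.52 to 10.80) than the gap between the Phlda3 groups (7.95 to 8.44). The Mdm2 and Mdm4 pair was lost without any 1 of the knockout replicates (adjusted p 0.0629 to 0.0698) and the Trp53inp1 and Trp53inp2 pair without knockout replicate 2 or 3 (0.0698 each).

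**Figure D2:**
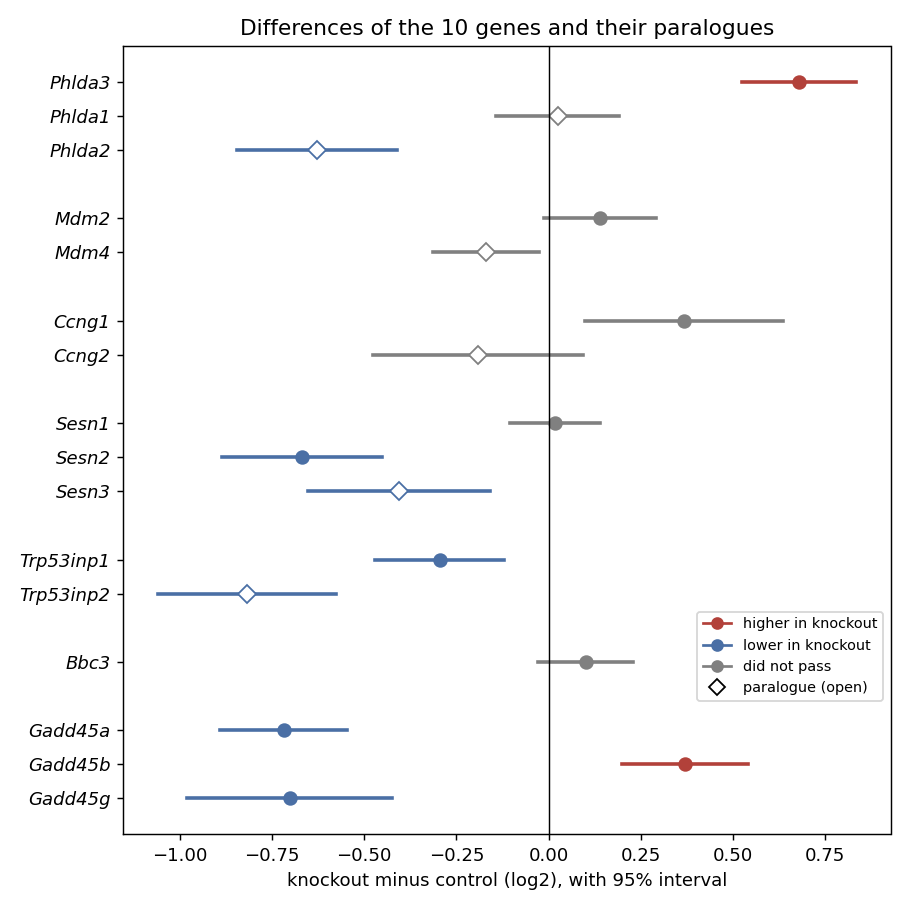
Knockout minus control difference (x axis, log2) with its 95% interval from limma for the 10 genes (filled circles) and their paralogues (open diamonds), coloured by the call, one family per block. Phlda3 lies at 0.68 and Phlda2 at -0.63, Sesn1 at 0.02 with Sesn2 at -0.67 and Sesn3 at -0.41, and Gadd45b at 0.37 with Gadd45a and Gadd45g together at -0.72 and -0.70.

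The other genes of the pathway were split too. The share of a list that was called, beside 18.8% of all genes, was 46.3% of other p53 targets, 29.2% of p53 regulators, 31.2% of the Bcl2 family and 26.3% of NF-kappaB targets. It was 57.7% for the integrated stress response and 45% for Foxo factors and targets. The shares of Gadd45 partners and stress kinases (21.4%) and of mTORC1 nutrient sensing (15.6%) were near that of all genes. The 18.8% was not matched for expression level. Tested alone, genes above the median level gave 1483 that rose and 1593 that fell, beside 1715 and 2031 of all genes. Calls were thus more frequent among brighter genes, and whether any list exceeded genes of like level was not tested. The shares of p53 regulators, the Bcl2 family and NF-kappaB targets are therefore not read as larger than that of genes of like level. Among 41 measured p53 targets outside the 10, 11 rose, 8 fell and 22 did not pass, with a median difference of 0.02. Polk, a translesion DNA polymerase, rose by 0.57 (SE 0.060, limma adjusted p = 9.52e-05), while Ak1, an adenylate kinase, fell by 1.09 (SE 0.099, adjusted p = 4.21e-05) and Dcxr, a xylulose reductase, by 0.67 (SE 0.079, adjusted p = 1.84e-04). Others chosen after their values were seen were the apoptosome gene Apaf1 (0.48, SE 0.061), the death receptor gene Tnfrsf10b (0.45, SE 0.068) and the RNA-binding Zmat3 (0.40, SE 0.11), which rose, and the autophagy regulator Dram1 (-1.35, SE 0.17) and Ddit4, an mTORC1 inhibitor (-0.55, SE 0.10), which fell. Of the 11 that rose, Psrc1, Ckap2 and Gtse1 are also spindle or mitosis genes, and all 19 measured mitosis markers rose. The count that rose was 7 without control replicate 1.

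Among 24 measured regulators of p53, 3 rose and 4 fell, with a median of -0.0044. Trp53bp2 and Ppp1r13l, which encode the p53-binding proteins Aspp2 and iAspp, rose by 0.43 (SE 0.079, limma adjusted p = 0.00281) and 0.48 (SE 0.10, adjusted p = 0.00677). With the mean of immediate early genes as a covariate neither passed (Trp53bp2 0.26, adjusted p = 0.374, and Ppp1r13l 0.60, adjusted p = 0.102), and with the mesenchymal mean Ppp1r13l did not (0.44, adjusted p = 0.0949). Cop1, a ubiquitin ligase of p53, rose by 0.28 (SE 0.073, adjusted p = 0.0220), a call lost without knockout replicate 2 (adjusted p = 0.0535) or 3 (0.0588) or control replicate 1 (0.0640) or 3 (0.0677) and under both covariates (mesenchymal 0.21, adjusted p = 0.275, and immediate early 0.41, adjusted p = 0.120). The 4 that fell were called by a narrow margin, and 0 of them passed without knockout replicate 3 or control replicate 1, 2 or 4, and 2 without knockout replicate 2 or 4 or control replicate 3.

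Of 14 Gadd45 partners and stress kinases 2 rose and 1 fell. The mitotic kinase gene Cdk1 rose by 0.63 (SE 0.072, limma adjusted p = 1.39e-04) and Mapk11, which encodes p38 beta, by 0.40 (SE 0.072, adjusted p = 0.00267), while Mapk13, p38 delta, fell by 0.38 (SE 0.096, adjusted p = 0.0193), a call lost without knockout replicate 3 (adjusted p = 0.0532) or control replicate 1 (0.0564), 2 (0.0517) or 4 (0.0535). Under the mesenchymal covariate Mapk11 (0.29, adjusted p = 0.0823) and Mapk13 (-0.27, adjusted p = 0.287) did not pass, and under the immediate early covariate Cdk1 (0.42, adjusted p = 0.0718), Mapk11 (0.48, adjusted p = 0.0743) and Mapk13 (-0.54, adjusted p = 0.122) did not. Of 16 Bcl2 family genes besides Bbc3, 2 rose and 3 fell. The BH3-only gene Bmf fell by 0.86 (SE 0.081, adjusted p = 5.19e-05) and Bcl2l14 by 0.70 (SE 0.087, adjusted p = 2.53e-04), and Bid, another BH3-only gene, rose by 0.39 (SE 0.076, adjusted p = 0.00452), but not under the mesenchymal (0.35, adjusted p = 0.0794) or the immediate early covariate (0.44, adjusted p = 0.122). Only 1 Bcl2 family gene rose without any 1 of knockout replicates 1, 2 and 4 and control replicates 1, 3 and 4.

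The integrated stress response and Foxo lists held more genes that fell than rose. Of 26 genes of the integrated stress response besides Sesn2, 11 fell, 4 rose and 11 did not pass (median -0.16). Slc7a5, a leucine transporter, fell by 1.04 (SE 0.079, limma adjusted p = 1.59e-05) and the endoplasmic reticulum gene Herpud1 by 0.52 (SE 0.064, adjusted p = 2.45e-04), while the cystine transporter gene Slc7a11 rose by 1.16 (SE 0.11, adjusted p = 4.34e-05). Atf4 itself, named after its value was seen, fell by 0.31 (SE 0.069, adjusted p = 0.00892). The number that rose was 2 without knockout replicate 2 or 3. Of 20 Foxo factors and targets 8 fell and 1 rose (median -0.22), among them catalase, Cat (-0.88, SE 0.072), the repressor Bcl6 (-0.79, SE 0.082) and the coregulator Cited2 (-1.13, SE 0.15), with limma adjusted p of 2.24e-05, 8.49e-05 and 3.60e-04. The member that rose was Cdkn1b, named after its value was seen, and 0 of the list rose without any 1 of knockout replicates 1 to 3 and control replicates 1 to 3.

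Of 32 genes of mTORC1 nutrient sensing, on which sestrins act, 4 fell and 1 rose (median -0.07). Deptor, an inhibitor of mTOR, fell by 1.33 (SE 0.13, limma adjusted p = 7.28e-05), Rragd, a Rag GTPase, by 1.11 (SE 0.094, adjusted p = 2.80e-05) and Prkab1, a subunit of AMP kinase, by 0.37 (SE 0.063, adjusted p = 0.00191). Prkab1 did not pass under the mesenchymal (-0.30, adjusted p = 0.0586) or the immediate early covariate (-0.43, adjusted p = 0.0708). The member that rose, Castor2, was picked out after its value was known, and 0 of the list rose without any 1 of knockout replicates 1, 2 and 4 and control replicates 1 and 3. Of 19 NF-kappaB targets, 3 rose and 2 fell (median 0.09). Birc3, an apoptosis inhibitor, fell by 0.69 (SE 0.065, limma adjusted p = 4.85e-05) and the nuclear coregulator Bcl3 by 0.71 (SE 0.11, adjusted p = 8.16e-04), and Tnip1, a brake on NF-kappaB, rose by 0.31 (SE 0.062, adjusted p = 0.00515). Bcl3 did not pass under the immediate early covariate (-0.35, adjusted p = 0.288), nor Tnip1 under the mesenchymal one (0.23, adjusted p = 0.128).

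**Figure D3:**
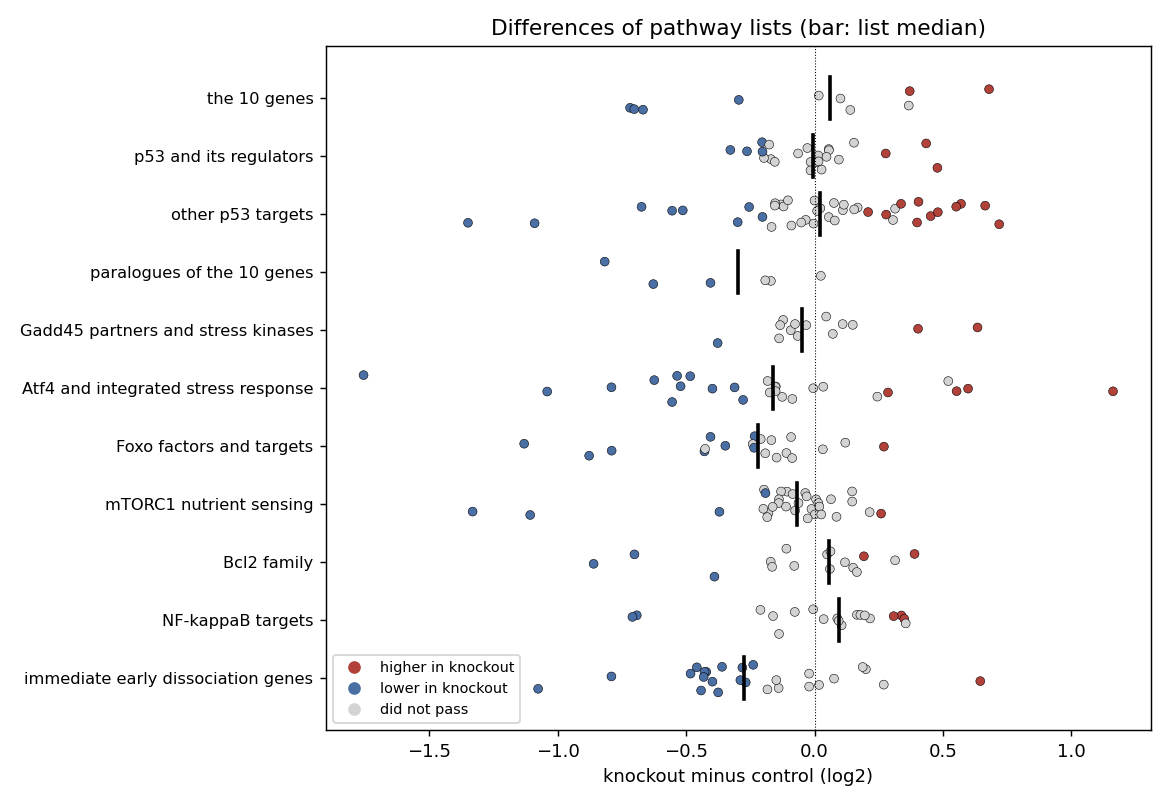
Knockout minus control difference (x axis, log2) of every measured gene of the 10 and of 10 wider lists, coloured by the call (red higher, blue lower, grey did not pass), with the list median as a black bar. The 10 genes and the other p53 targets spread to both sides of 0 (medians 0.06 and 0.02), while the Foxo and immediate early lists have medians of -0.22 and -0.27.

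Gadd45 genes are also induced when tissue is dissociated, as immediate early genes are, so those were read beside them. Of 26 immediate early genes 15 fell, 1 rose and 10 did not pass (median -0.27), beside 10.2% of all genes that fell and 8.6% that rose. The cytokine feedback gene Socs3 fell by 0.79 (SE 0.064, limma adjusted p = 2.16e-05) and the zinc finger gene Egr2 by 1.08 (SE 0.11, adjusted p = 6.85e-05), while Ier3, a stress and NF-kappaB response gene, rose by 0.65 (SE 0.089, adjusted p = 4.99e-04). The mean level of the list was 10.28 to 10.44 in knockout and 10.51 to 10.66 in control arrays, without overlap. Gadd45a and Gadd45g fell beside a falling list and Gadd45b rose beside it. The number of the list that rose was 2 without control replicate 4. With the list mean as a covariate Gadd45a (-0.60, SE 0.16, limma adjusted p = 0.0398) and Gadd45g (-1.20, SE 0.19, adjusted p = 0.00425) kept their calls and Gadd45b did not (0.49, SE 0.16, adjusted p = 0.0810). The covariate itself differed between the groups without overlap, and SEs in that fit were larger. Kept or lost calls therefore do not show what the immediate early shift accounts for.

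Markers of several cell states and cell types differed between the groups too. Among all genes, not matched for expression level, 8.6% rose and 10.2% fell. All 19 mitosis markers rose (mean level 8.50 to 8.74 in knockout, 7.92 to 8.05 in control arrays). Of 12 alveolar type 1 markers 9 rose (11.92 to 12.08 against 11.41 to 11.56) and of 12 type 2 markers 10 fell (11.09 to 11.59 against 12.19 to 12.34). Of 15 mesenchymal markers 5 rose (8.66 to 9.15 against 8.36 to 8.82), a number that was 2 without knockout replicate 3 and 9 without knockout replicate 1. Of 10 endothelial markers 4 rose (9.11 to 9.25 against 8.79 to 9.09), and of 8 mesothelial markers 2 rose (8.25 to 8.72 against 7.95 to 8.36). Of 12 leukocyte markers 1 rose and 1 fell (9.03 to 9.28 against 8.76 to 9.55), and of 5 measured erythroid markers 1 fell (6.95 to 7.10 against 7.10 to 7.202). The called shares of the leukocyte (16.7%) and erythroid (20%) lists were near the 18.8% of all genes. Of 13 general epithelial markers 2 rose and 2 fell. With 1 array left out, 0 to 3 leukocyte markers (lowest without knockout replicate 2, highest without control replicate 2) and 1 to 4 epithelial markers (lowest without knockout replicate 1, highest without control replicate 4) rose. Array values have no 0, so no marker can be called absent. With the mesenchymal mean as a covariate Phlda3 (0.56, SE 0.083, limma adjusted p = 0.00282), Gadd45a (-0.84, SE 0.097, adjusted p = 8.16e-04) and Sesn2 (-0.57, SE 0.13, adjusted p = 0.0259) kept their calls. Gadd45g (-0.53, SE 0.16, adjusted p = 0.0781), Gadd45b (0.31, SE 0.11, adjusted p = 0.116) and Trp53inp1 (-0.24, SE 0.11, adjusted p = 0.252) did not. The mesenchymal mean itself differed between the groups (8.91 in knockout and 8.54 in control arrays on average). SEs of these 6 genes were larger in that fit, so kept or lost calls do not show what the mesenchymal shift accounts for. The part of the alveolar and mitosis shifts in these differences was not tested.

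**Figure D4:**
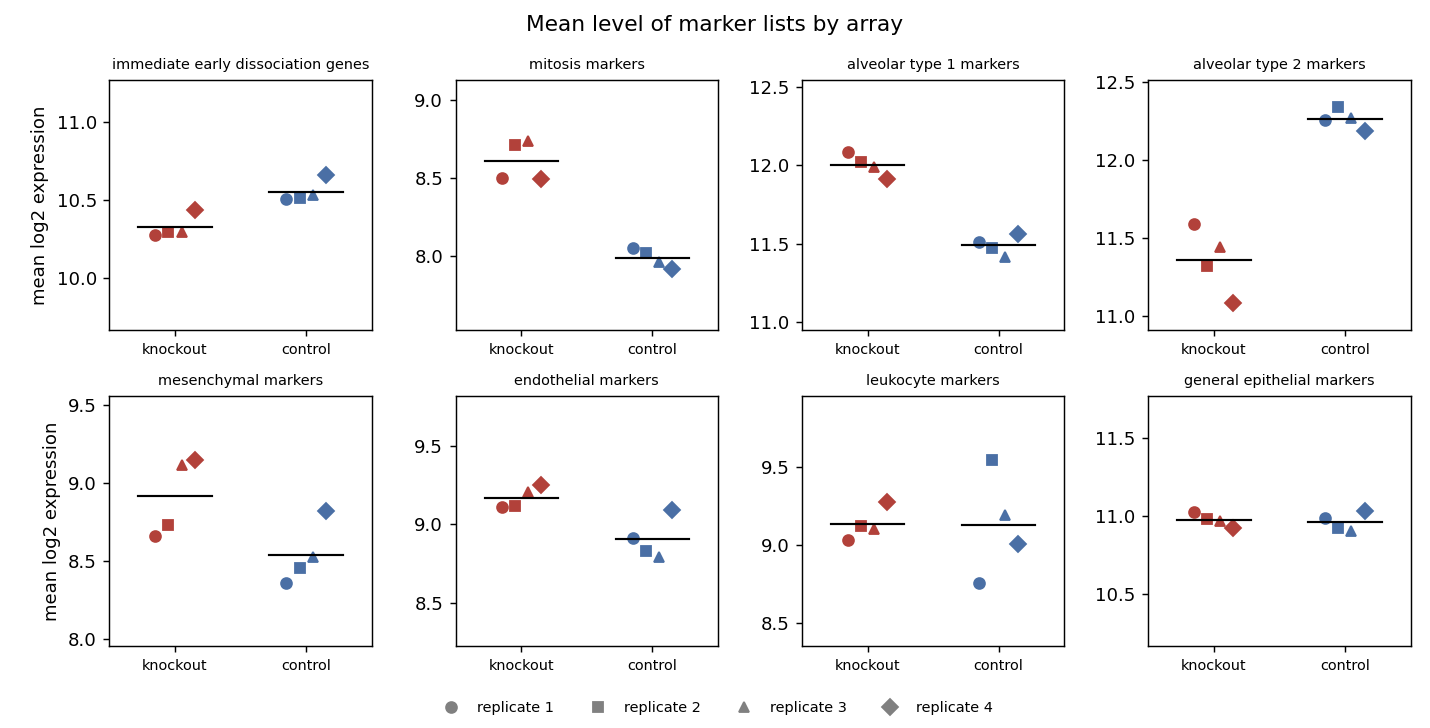
Mean log2 expression (y axis, the same span of log2 units in every panel) of 8 gene lists in each array, knockout in red at left and control in blue at right, with the group mean as a bar (n = 4) and marker shapes for the replicate number. Mitosis, alveolar type 1 and endothelial markers lie higher and type 2 markers and immediate early genes lower in every knockout array. Mesenchymal and leukocyte markers overlap, and general epithelial markers sit at 10.92 to 11.03 in knockout and 10.90 to 11.03 in control arrays.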

How the data were processed

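The authors deposited a table of log2 expression for 35556 probe sets on 8 arrays, 4 per group. The log2 scale was read from the values. The normalization was not given in the sources used here, nor was the software. Biotin labelling followed Affymetrix protocols, per the labels' protocols. Array medians lay between 7.21 and 7.30, so no scaling was added, and a change in total RNA per cell would be hidden. Depth does not apply to arrays, whose number limits the precision. Symbols came from the platform annotation in GEO: 21789 probe sets have 1 symbol, 1621 several and 12146 none given. For the 999 genes with more than 1 such probe set the brightest was used, which left 19938 genes. By gene number, 21698 probe sets matched the RefSeq table of GRCm38.p6, with 0 symbols changed. No coordinates of probe sets were used.

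Groups were compared with lmFit and eBayes (limma 3.58.1, R 4.3.3, no covariate, two-sided), checked on simulated data. Paralogue pairs were tested by exact two-sided permutation of per-array differences over 70 assignments, with Benjamini-Hochberg adjustment over 11 pairs. Promoter windows were searched with Python 3.11.15. The 10 genes and all lists were chosen with earlier results of these data known. Of 228 genes in the 10 wider lists, 216 were measured, and the others were not analysed here. Each list leaves out the 10 genes, and a gene may stand in several lists. Named genes were the 10, Stk3, Stk4 and Trp53, the paralogues, 4 epithelial markers, the 3 genes with the smallest p of each wider list, and the 3 nearest to the leading gene. Alternatives are given in the closing section.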

Additional observations from a re-analysis of the deposited data

Results flagged for a closer look

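In 102 groups of 4 arrays (51 named genes), 7 had 1 array far from the other 3 by Dixon's gap ratio, where chance flags about 1 in 20 groups. Among the 10 genes these were Ccng1 in knockout replicate 4, at 10.72 against 11.10 to 11.17 in the other knockout arrays, and Gadd45b in control replicate 4, at 11.06 against 10.74 to 10.78. Both arrays lie toward the other group, and Ccng1 passed the test without the first of them. Stk4 read 9.84 in control replicate 2 against 9.59 to 9.62 in the others. Ppp1r13l, the iAspp gene, read 8.78 in knockout replicate 4 (others 8.36 to 8.41). The p38 genes Mapk11 and Mapk13 read 7.16 in control replicate 2 (others 7.25 to 7.27) and 9.38 in control replicate 3 (others 9.69 to 9.72). Bid read 7.84 in knockout replicate 1 (others 7.94 to 7.96).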

How the results depend on the processing

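Over 19 alternatives to the fit, Phlda3, Sesn2 and Gadd45a kept direction and call, and Mdm2 and Bbc3 stayed uncalled. Of the 10 genes, 2 to 3 rose and 3 to 4 fell when 1 array was left out, against 2 and 4 with all arrays. With the mesenchymal mean as a covariate 1 rose and 2 fell, 762 of all genes rose and 959 fell (1715 and 2031 without it), Stk4 differed by -0.19 (adjusted p = 0.310), and 6 other p53 targets rose and 4 fell. With the immediate early mean as a covariate 1 of the 10 rose, 737 of all genes rose and 1179 fell, Stk4 differed by -0.48 (adjusted p = 0.0751), and 3 other p53 targets rose and 3 fell. The other p53 targets that rose numbered 7 among genes above the median level, where fewer genes are tested, and 7 without knockout replicates 1 and 4 together, where Stk4 differed by -0.29 (adjusted p = 0.0703). Leaving out 1 array gave 7 to 11 such targets that rose, and Stk4 differences from -0.33 to -0.24. For other changes the cause was not tested. Ccng1 also passed with array weights (0.45, adjusted p = 0.00665), among genes above the median level (0.37, 0.0478) and without knockout replicates 1 and 4 together (0.45, 0.0350).

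Uncalled values near 0 turned sign. Sesn1 reached -0.034 with the immediate early covariate and spanned -0.0011 to 0.046 with 1 array left out. Epcam reached -0.056 with that covariate and spanned -0.042 to 0.091. Cdh1 turned to 0.0061 with array weights and 0.032 with the mesenchymal covariate, spanning -0.023 to 0.0087. Nkx2-1 turned to 0.11 with the mesenchymal covariate, spanning -0.12 to 0.011. Phlda1 turned to -0.026 with array weights, -0.12 with the mesenchymal covariate and -0.022 without knockout replicates 1 and 4, spanning -0.030 to 0.066. Gadd45a minus Gadd45g spanned -0.13 to 0.059 with 1 array left out.

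Replicate numbers shared by the groups did not pair the arrays: deviations of same-numbered arrays correlated at 0.06, 0.10, -0.08 and 0.04, and 1 of 8 arrays correlated best with its own number. With the number as a block 2 of the 10 genes rose and 3 fell, 1595 of all genes rose and 1899 fell, and 10 of 11 pairs passed in limma.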
